A study of Mus musculus with 2 samples.

Results

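Red pulp macrophages are the resident iron-recycling macrophages of the spleen. They were picked from 2 single-cell libraries of mouse spleen by their transcripts. A barcode (the tag of one droplet) was a member when it had at least 300 detected genes, at least 500 UMIs (unique molecular identifiers, each counting one captured RNA molecule) and under 10% mitochondrial UMIs. It also had to hold at most 2 UMIs of the B cell gene Cd79a, 0 of the T cell gene Cd3e, a UMI of at least 2 of the 6 genes Vcam1, Spic, Slc40a1, Cd5l, Hmox1 and Axl, and at least 3 UMIs of C1qa, C1qb and C1qc together. Barcodes with 2 or more of the 4 patrolling monocyte genes Ace, Treml4, Cd300e and Adgre4 were left out. This rule found 70 members, 38 in the Glutoborin library and 32 in the Vehicle library, among 17850 deposited barcodes, of which 15941 passed the limits on genes, UMIs and mitochondrial share and are called kept barcodes. The levels of these genes chose the members, so their values are given as a description.

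Red pulp macrophages engulf old and damaged red blood cells, break down their heme through heme oxygenase 1 (Hmox1) and return the iron to the blood through the exporter ferroportin (Slc40a1). Their identity depends on the transcription factor SpiC (Spic), which heme induces, and they carry the adhesion molecule VCAM-1 (Vcam1), the secreted scavenger protein CD5L (Cd5l) and the complement component C1q. They are held tightly in the stroma of the red pulp and are fragile on isolation, so that few usually reach a single-cell suspension. When many red cells are destroyed they face large amounts of heme and iron.

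Both libraries came from spleens of wild-type mice that had received an intraperitoneal injection of 10000 iRBCs, an abbreviation not spelled out in the labels. The Glutoborin group was given Glutoborin, and the Vehicle group its vehicle, on days 2 and 4, and the spleens were taken on day 5. Cells were prepared from the spleens as lymphocytes, sorted for the leukocyte antigen CD45 and made into droplet libraries that read the 3′ ends of transcripts. The dose and chemistry of Glutoborin and the number, age and sex of the mice are not given in the sources used here, and uninjected mice were not analysed here. Each group is 1 library, so no difference between the groups has a replicate check and no p-value is given. Intervals are exact at the 95% level and cover counting error only.

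The Glutoborin library held 9646 barcodes, of which 9253 were kept, and the Vehicle library held 8204, of which 6688 were kept. The median was 4916 UMIs per kept barcode in Glutoborin and 5763 in Vehicle. The libraries shared 24 barcode sequences, and 0 of the 70 members were among them.

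The members carried the genes of the rule far above other cells, which the rule itself required. Levels summed over cells are given as CPM, counts per 1000000 UMIs of the summed cells. Vcam1 had a UMI in 94.7% of Glutoborin members (82.3 to 99.4%) and 87.5% of Vehicle members (71.0 to 96.5%), against 0.419% of Glutoborin and 0.415% of Vehicle B cells, which should lack it. B cells were deeper, with medians of 4164 UMIs in Glutoborin and 4810.5 in Vehicle, against 2193 and 1668.5 in the members of the same libraries. After each cell was thinned to 500 UMIs, Vcam1 remained in 52.6% of Glutoborin and 46.9% of Vehicle members, against 0 and 0.0889% of the B cells. Spic, the rarest of the 6 marker genes, was seen in 20 of 38 Glutoborin and 16 of 32 Vehicle members. All 6 were seen together in 11 of 38 Glutoborin members and 10 of 32 Vehicle members. The macrophage antigen gene Adgre1 (F4/80), which the rule did not use, had a UMI in 22 of 38 Glutoborin and 16 of 32 Vehicle members, against 1.32% and 1.04% of B cells. The leukocyte gene Ptprc, which encodes the sorted antigen CD45, had a UMI in 71.1% of Glutoborin and 71.9% of Vehicle members. Marginal zone and metallophilic macrophages, the other resident macrophages of the spleen, were hardly represented: Cd209b, Cd209d and Cd209e had 0 UMIs in both libraries, Marco had 2 in Glutoborin and 5 in Vehicle members, and Siglec1 had 3 and 2. Since the rule imposed its own genes, only genes outside the rule, such as Adgre1, bear on the label independently. Adgre1 was detected in part of the members. It was set against B cells alone here, which does not tell macrophages from monocytes.

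**Figure D1:**
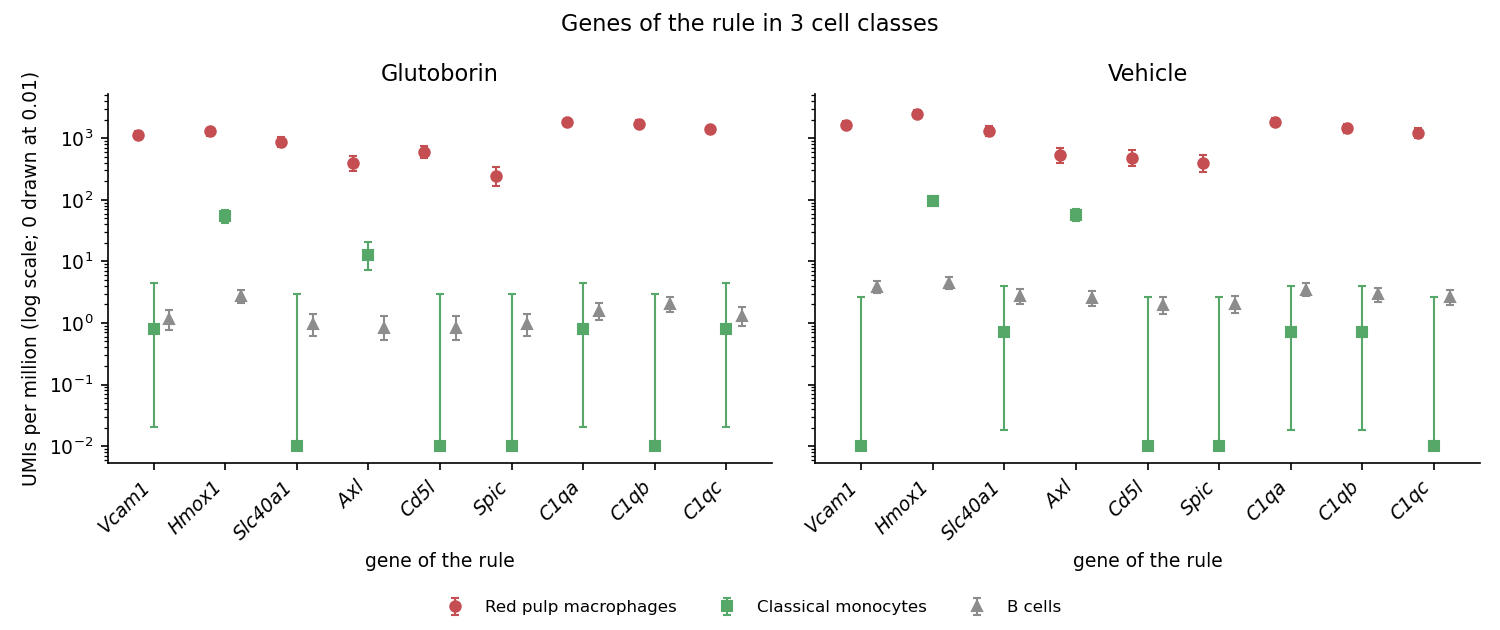
Summed level, as CPM, of the 9 genes that the rule required, on a log scale, in red pulp macrophages, classical monocytes and B cells of the Glutoborin (left) and Vehicle (right) libraries, with exact Poisson intervals and levels of 0 drawn at 0.01. Hmox1 is at 1290 and Axl at 394 CPM in Glutoborin members, and classical monocytes show both of these genes above the B cell level while the other 7 are at or near 0 in them.

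The members were shallow and mixed in depth. Their UMIs ran from 594 to 15224 in Glutoborin, with a median of 2193, and from 528 to 15074 in Vehicle, with a median of 1668.5. They held 139493 UMIs in all in Glutoborin and 96239 in Vehicle. Many of the deepest members also carried transcripts of another lineage. At least 5 UMIs of the marker list of another cell type were found in 14 of 38 Glutoborin members (36.8%, 21.8 to 54.0%) and in 9 of 32 Vehicle members (28.1%, 13.7 to 46.7%). These members held 71.3% of the Glutoborin and 65.3% of the Vehicle member UMIs, with medians of 6319.5 and 6496 UMIs. Natural killer cell genes such as Gzma and Nkg7 reached 5 UMIs in 6 Glutoborin and 3 Vehicle members, and T cell genes in 4 Glutoborin and 5 Vehicle members. A single Glutoborin member held 900 of the 906 neutrophil-list UMIs, another held 119 of the 120 erythroid-list UMIs, and a Vehicle member held 84 of the 102 classical monocyte-list UMIs of its library. The doublet caller Scrublet marked 1 of the 38 Glutoborin and 0 of the 32 Vehicle members. The 24 Glutoborin and 23 Vehicle members without 5 UMIs of any such list, called the lineage-clean members here, had 40084 and 33347 UMIs in all and medians of 1142.5 and 1311 UMIs. A cut of 5 UMIs is harder to reach at low depth. The members that reached it had at least 2026 UMIs in Glutoborin and 2337 in Vehicle. The lineage-clean set is thus also a set of shallow barcodes, and is not shown to be free of other transcripts. The 6 marker genes and the C1q genes together made up a median of 2.21% of UMIs in the lineage-clean Glutoborin and 2.76% in the lineage-clean Vehicle members, against 0.449% and 0.419% in the members with other-lineage transcripts.

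The limit on patrolling monocyte genes removed barcodes that held more of the marker genes and more C1q UMIs than the members, and that were also deeper. It alone kept out 21 barcodes in Glutoborin and 11 in Vehicle. Their median was 6 of the 6 marker genes in both libraries, and 58 C1q UMIs in Glutoborin and 32 in Vehicle, against medians of 10.5 and 11 in the members. All 6 marker genes were present in 14 of the 21 and 6 of the 11. The genes that kept them out were mostly Treml4, seen in 18 of the 21 Glutoborin and 10 of the 11 Vehicle barcodes, and Adgre4 (EMR4), seen in 20 and 9, while Ace was seen in 1 and 2. Treml4 encodes a receptor that binds dead cells and Adgre4 an adhesion receptor of the same family as F4/80. The median depth of the barcodes kept out was 5362 UMIs in Glutoborin and 5994 in Vehicle, against 2193 and 1668.5 in the members. The gene numbers and C1q UMIs given here were not corrected for depth. Of those kept out, 18 in Glutoborin and 11 in Vehicle also had a UMI of Csf1r and so met a gate for patrolling monocytes. The main counts below are therefore also given without this limit, over 59 Glutoborin and 43 Vehicle barcodes with 259190 and 149612 UMIs. At the other edges of the rule few barcodes were near: 6 Glutoborin and 3 Vehicle members had exactly 3 C1q UMIs and 1 and 0 barcodes just missed with 2. Members with exactly 2 marker genes numbered 3 in Glutoborin and 2 in Vehicle, and barcodes that missed with 1 also numbered 3 and 2. The Cd3e limit alone kept out 21 Glutoborin and 19 Vehicle barcodes and the Cd79a limit 6 and 3.

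Most lineage-clean members held almost no Malat1, a long noncoding RNA that stays in the nucleus and is among the most abundant transcripts of nearly all cells. It made up a median of 0.0704% of UMIs in the 24 lineage-clean Glutoborin members and 0.0895% in the 23 lineage-clean Vehicle members. No Malat1 UMI was found in 9 of the 24 (37.5%, 18.8 to 59.4%) and 9 of the 23 (39.1%, 19.7 to 61.5%). Other kept barcodes under 2500 UMIs, whose median depth was 1827.5 UMIs in Glutoborin and 1267 in Vehicle, had Malat1 medians of 1.93% in Glutoborin and 2.57% in Vehicle, and 16 of 314 (5.10%, 2.94 to 8.14%) and 7 of 268 (2.61%, 1.06 to 5.31%) had none. With all thinned to the same 500 UMIs, 37.5% of lineage-clean Glutoborin members and 43.5% of lineage-clean Vehicle members kept a Malat1 UMI, against 93.3% and 94.8% of those other barcodes. Members with other-lineage transcripts had medians of 2.01% in Glutoborin and 0.941% in Vehicle, classical monocytes 0.856% and 0.916%, and B cells 2.45% and 2.71%. The barcodes kept out by the patrolling limit had medians of 1.93% in Glutoborin and 1.19% in Vehicle. Among these, however, the 7 Glutoborin barcodes under 2500 UMIs ran from 0 to 0.555% and the 4 Vehicle ones from 0.0491 to 0.563%. Low Malat1 was thus seen in both libraries, in lineage-clean members and in shallow barcodes that the patrolling limit kept out. The mitochondrial share of the lineage-clean members had a median of 4.05% in Glutoborin and 5.08% in Vehicle, against 3.82% and 3.93% in the other barcodes under 2500 UMIs. What the low nuclear RNA stands for was not tested. A CPM level in these members therefore describes the RNA in these barcodes, and fewer cells and less RNA per cell cannot be told apart in the sums.

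**Figure D2:**
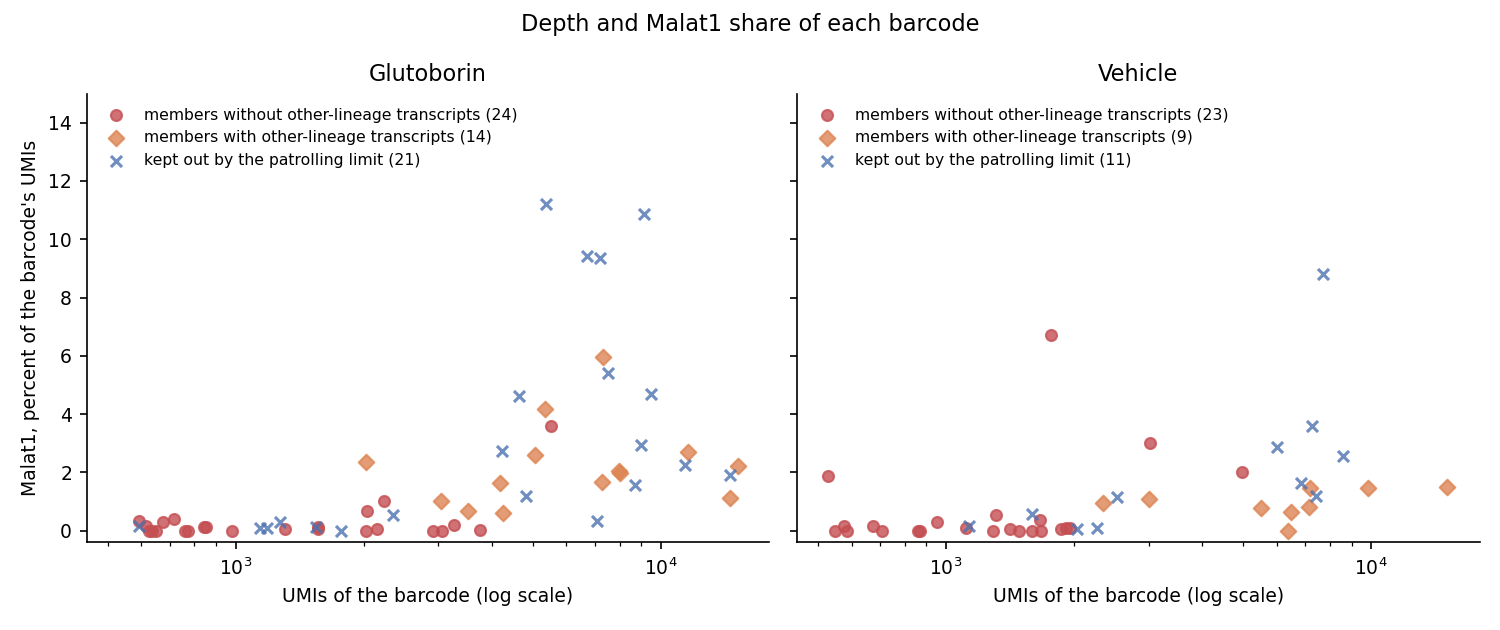
Each point is 1 barcode of the Glutoborin (left) or Vehicle (right) library, with its UMIs on a log scale and Malat1 as a percentage of those UMIs. The lineage-clean members (red circles) lie near 0 over most of their depth range, while members with other-lineage transcripts (orange diamonds) and barcodes kept out by the patrolling limit (blue crosses) mostly lie above them at greater depth, and the shallow blue crosses lie near 0 too.

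Beyond the genes of the rule, the summed members held a set of genes that were low or at 0 in classical monocytes of the same libraries. Classical monocytes were taken as other kept barcodes with Csf1r, Ly6c2 and Ccr2, under the same limits on Cd79a, Cd3e and patrolling genes and without Ly6g. They numbered 101 in Glutoborin and 126 in Vehicle. Among 1258 genes with at least 100 CPM in the members of both libraries, genes of the rule left out, 53 were at least 10-fold higher than in classical monocytes in both. Since the same cells defined the groups, this is a description. Fcna, which encodes the lectin ficolin A, led with 66 UMIs in Glutoborin members against 1 in Glutoborin monocytes, a log2 ratio of 9.21 (6.68 to 14.5), and 50 against 3 in Vehicle, a log2 ratio of 7.93 (6.30 to 10.3). Nr1h3, encoding the oxysterol receptor LXRα, which marginal zone macrophages of the spleen are known to need, had 35 UMIs in Glutoborin members against 2 in monocytes and 24 against 2 in Vehicle. The eotaxin receptor gene Ccr3 had 59 UMIs in Glutoborin members and 21 in Vehicle members and 0 in the monocytes of both, at least 176-fold higher in Glutoborin and at least 103-fold higher in Vehicle with 3 UMIs set as the floor per library. Cadm1, an adhesion molecule gene, had 29 and 25 UMIs in Glutoborin and Vehicle members and again 0 in monocytes.

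The same order held further genes with named roles. Those for secreted factors were C6, a component of the terminal complement pathway, Igf1, a growth factor, and Dnase1l3, an enzyme that degrades extracellular DNA. Surface and channel genes were Cd81, a tetraspanin, Gfra2, a receptor for neurturin, Itgad, the integrin αD chain that marks red pulp macrophages, and Kcnj10, an inwardly rectifying potassium channel. Hebp1 encodes a heme-binding protein, Serpinb6a a protease inhibitor, Actn1 an actin cross-linker and Asb2 a subunit of a ubiquitin ligase. Dnase1l3 was the last of these 15, at 56 UMIs in Glutoborin members against 12 in monocytes, a log2 ratio of 5.39 (4.47 to 6.42), and 25 against 5 in Vehicle, at 6.20 (4.79 to 7.94). Among lineage-clean members 63 genes passed the 10-fold limit in both libraries. Natural killer and T cell genes such as Nkg7 and Trbc1 followed in the full order and are among the 53. Gzma stood there at 380 UMIs in only 6 Glutoborin members and 236 in 3 Vehicle members.

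The share of red pulp macrophages did not differ between the libraries beyond counting error. They were 38 of 9253 kept barcodes in Glutoborin (0.411%, 0.291 to 0.563%) and 32 of 6688 in Vehicle (0.478%, 0.327 to 0.675%), a log2 ratio of -0.22 with an interval of -0.94 to 0.51. The lineage-clean members were 0.259% of kept barcodes in Glutoborin and 0.344% in Vehicle, a log2 ratio of -0.41 (-1.29 to 0.48). Both intervals hold a 1.5-fold fall, so a change of that size was not detectable with so few members. With the patrolling limit lifted the shares were 0.638% in Glutoborin and 0.643% in Vehicle. Classical monocytes in the same libraries were 1.09% of kept barcodes in Glutoborin and 1.88% in Vehicle, a log2 ratio of -0.79 (-1.18 to -0.40).

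For expression, UMIs were summed over the members of each library and compared as CPM. A gene with at least 50 UMIs in all was measured, and one at least 1.5-fold apart was counted as higher or lower in Glutoborin. Of 656 measured genes, 59 (8.99%) were higher and 91 (13.9%) were lower, with a median log2 ratio of -0.06 over all. These shares are the background for every list below. In the lineage-clean members, at a minimum of 20 UMIs, 81 of 544 genes (14.9%) were higher and 107 (19.7%) lower. Without the patrolling limit 121 of 1309 (9.24%) were higher and 114 (8.71%) lower, and without that limit and without other-lineage members 65 of 640 (10.2%) were higher and 63 (9.84%) lower.

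Genes induced by type I interferon were lower in the Glutoborin members. Of 15 measured members of the list, 9 were at least 1.5-fold lower and 0 higher, against a background of 13.9% lower, and the list median was a log2 ratio of -0.84, beside -0.06 over all measured genes. All 15 had a ratio below 0. In the lineage-clean members 11 of 15 were lower, against 19.7%, with a median of -1.27. Without the patrolling limit 19 of 32 were lower, against 8.71%, with a median of -0.71, and 12 of 20 were lower, against 9.84%, when other-lineage members were also left out, with a median of -0.64. The list had 58 genes, of which 56 had a row. In each of the 4 sets 0 members of the list were higher.

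Isg15, a ubiquitin-like protein that is joined to other proteins in the antiviral response, had 28 UMIs in Glutoborin members and 43 in Vehicle members. These came to 201 and 447 CPM, with a log2 ratio of -1.15 (-1.90 to -0.43). It was detected in 10 of the 38 Glutoborin and 16 of the 32 Vehicle members. Its ratio was -1.77 in the lineage-clean members, -1.71 without the patrolling limit and -2.31 without that limit and without other-lineage members. Irf7, the transcription factor that amplifies interferon production, had 55 UMIs in Glutoborin and 77 in Vehicle members. These came to 394 and 800 CPM, with a log2 ratio of -1.02 (-1.55 to -0.50), and 24 of the Glutoborin and 20 of the Vehicle UMIs lay in 1 cell each. In the lineage-clean members it had 14 UMIs in Glutoborin and 42 in Vehicle, 15 of these in 1 cell, with a log2 ratio of -1.85 (-2.84 to -0.95). Both genes were thus lower in Glutoborin in each set.

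Bst2 encodes tetherin, which holds budding virus at the cell surface. Its level was 186 CPM in Glutoborin and 436 CPM in Vehicle members, and its log2 ratio -1.23 (-1.99 to -0.49). Zbp1, a sensor of Z-form nucleic acid that can start cell death, had 143 CPM in Glutoborin and 395 CPM in Vehicle, at -1.46 (-2.32 to -0.64). Ifitm3 makes an endosomal membrane protein that hinders the entry of viruses. It had 152 UMIs in Glutoborin and 188 in Vehicle members, at -0.84 (-1.16 to -0.53), but 70 and 97 of them came from 1 cell in each library. In the lineage-clean members, where the richest cell held 6 of 41 Glutoborin and 10 of 73 Vehicle UMIs, the log2 ratio of Ifitm3 was -1.10 (-1.69 to -0.53). Ifi27l2a was likewise uneven, with 60 of 157 UMIs in 1 Glutoborin cell and 80 of 201 in 1 Vehicle cell, and its log2 ratio of -0.89 in the members was -0.51 (-1.07 to 0.04) in the lineage-clean ones.

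Not every interferon gene was past 1.5-fold. Ly6e, a membrane protein, stood at 1584 CPM in Glutoborin and 1870 CPM in Vehicle, with a log2 ratio of -0.24 (-0.53 to 0.05). Rsad2 (viperin), an antiviral enzyme, was under the 50-UMI minimum in the members with 15 UMIs in Glutoborin, 10 of them in 1 cell, and 17 in Vehicle. Without the patrolling limit and without other-lineage members Rsad2 had 8 UMIs in Glutoborin and 45 in Vehicle barcodes, at a log2 ratio of -3.15 (-4.44 to -2.05).

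Many interferon-induced genes are known to carry the interferon-stimulated response element, to which the ISGF3 and IRF factors bind. Windows of 250 bases before to 50 bases after the transcript start were read from RefSeq on GRCm38.p6 and searched on both strands for the element's core letters, GAAA repeated after any 2 bases, with overlapping matches allowed. The letters were found in 1079 of 27025 genes with a window (3.99%). Of the 58 list genes 45 had a window and 25 of these held the letters, and of the 15 measured genes 9 had a window and 6 held them, namely Bst2, Ifi203, Ifitm3, Isg15, Slfn5 and Trim30a. Irf7, Lgals3bp and Sp100 had none in this window. A match is a description of the letters and not a measured binding site. The windows of 3 of the genes described above are shown, each on the gene's own strand with the matches in capitals, to let the letters be seen where they lie. Isg15 is at chr4:156200769-156201068 on the minus strand and has 3 overlapping matches that begin 78 bases before the start. Bst2 is at chr8:71537423-71537722 on the minus strand and has 2 overlapping matches from 130 bases before the start. Ifitm3 is at chr7:141010695-141010994 on the minus strand and has 2 matches, both within the 50 bases after the start.
Isg15: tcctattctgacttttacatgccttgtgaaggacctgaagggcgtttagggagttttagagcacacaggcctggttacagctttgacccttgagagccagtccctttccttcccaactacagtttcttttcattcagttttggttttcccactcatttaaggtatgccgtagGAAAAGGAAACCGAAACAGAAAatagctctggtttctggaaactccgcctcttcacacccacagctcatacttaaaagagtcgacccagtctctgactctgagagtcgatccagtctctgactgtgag
Bst2: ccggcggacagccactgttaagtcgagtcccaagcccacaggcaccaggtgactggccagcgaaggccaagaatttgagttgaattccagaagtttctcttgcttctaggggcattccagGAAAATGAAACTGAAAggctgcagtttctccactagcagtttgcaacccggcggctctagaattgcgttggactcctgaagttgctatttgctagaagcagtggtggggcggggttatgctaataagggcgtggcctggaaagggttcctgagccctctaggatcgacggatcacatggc
Ifitm3: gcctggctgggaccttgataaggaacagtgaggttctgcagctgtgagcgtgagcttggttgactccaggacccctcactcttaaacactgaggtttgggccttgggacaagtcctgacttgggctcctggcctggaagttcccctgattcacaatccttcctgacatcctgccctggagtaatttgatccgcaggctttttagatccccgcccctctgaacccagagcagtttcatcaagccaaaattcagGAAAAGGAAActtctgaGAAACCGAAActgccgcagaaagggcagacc

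**Figure D3:**
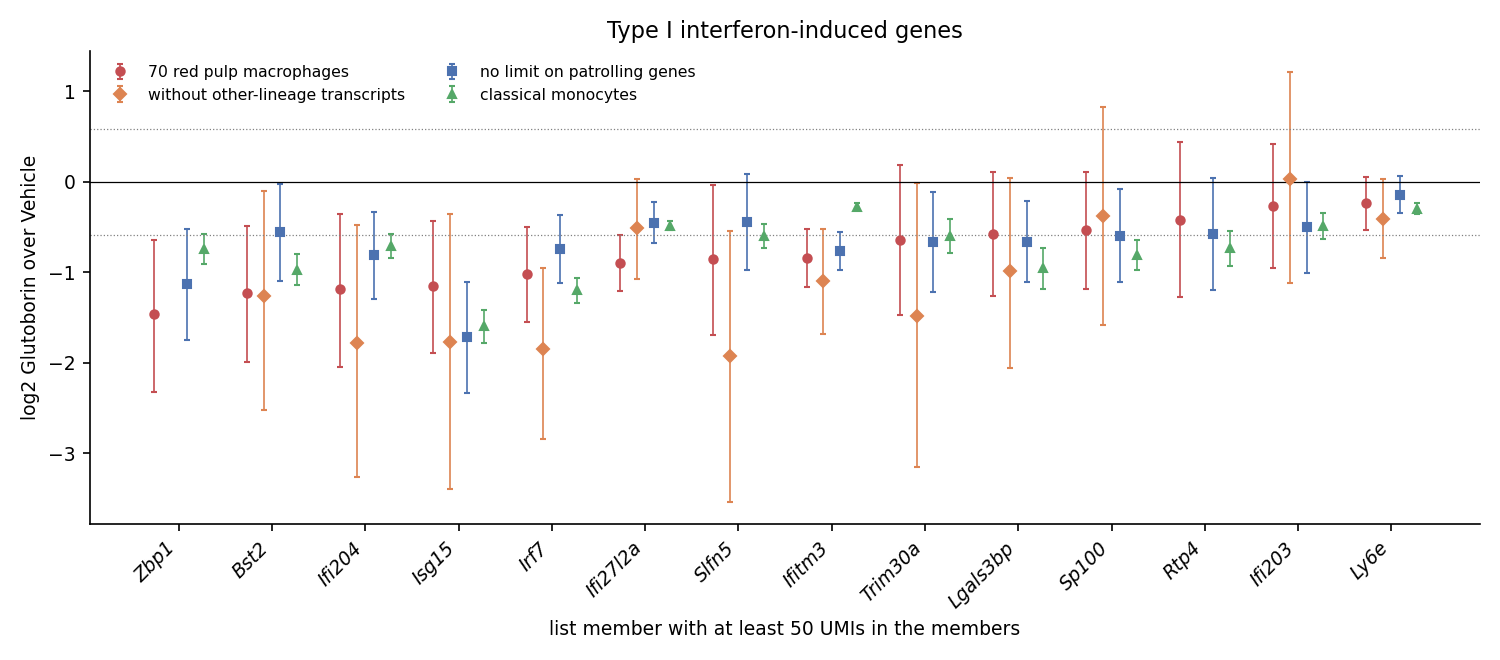
Log2 ratio of Glutoborin over Vehicle with exact intervals for 14 of the type I interferon list genes measured in the members, in the 70 members (red circles), the lineage-clean members (orange diamonds), the barcodes without the patrolling limit (blue squares) and classical monocytes (green triangles). Dotted lines mark 1.5-fold. All 14 points of the 70 members (red) lie below 0, from -1.46 for Zbp1 to -0.24 for Ly6e. Genes under the minimum in a set (20 UMIs in the lineage-clean members, 50 in the others) have no point there.

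The same list was lower in other cells of the same 2 libraries. In classical monocytes 47 of 56 measured genes were at least 1.5-fold lower in Glutoborin, against a background of 6.53% lower and 3.76% higher, with a median log2 ratio of -0.89. In B cells 51 of 55 were lower, against 3.59% lower and 2.53% higher, with a median of -1.36. Whether the members differed from these cells in the size of the shift was not tested. Interferon gamma-induced genes were less even: 2 of 5 measured were lower in the members and 0 higher, with a median of -0.49, and 4 of 4 were lower in the lineage-clean members, with a median of -1.45. With the patrolling limit lifted, however, 3 of 14 were higher and 2 lower, with a median of 0.06. Serpina3g, a protease inhibitor gene, had 538 CPM in Glutoborin and 1330 CPM in Vehicle members, a log2 ratio of -1.31 (-1.74 to -0.88), and -0.53 without the patrolling limit. The guanylate-binding protein gene Gbp2 was at -1.30 (-2.11 to -0.52) in the members and -0.93 without that limit.

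MHC class II genes, which present antigen to CD4 T cells, had higher sums in the Glutoborin members, and a few cells held a large part of those sums. Of 7 measured, 3 were at least 1.5-fold higher, against a background of 8.99%, and 0 lower, with a median log2 ratio of 0.41. H2-Eb1 had 498 UMIs in Glutoborin and 174 in Vehicle members, at 0.98 (0.73 to 1.24), H2-Aa had 603 and 256, at 0.70 (0.49 to 0.92), and H2-Ab1 had 495 and 213, at 0.68 (0.45 to 0.92). The invariant chain gene Cd74 had 1083 and 562 UMIs, at 0.41 (0.26 to 0.56). In the lineage-clean members 5 of 7 were higher, against 14.9%, with a median of 1.25. The richest 3 cells, however, held 66.9% of the Cd74 UMIs of the Glutoborin members and 68.9% of those of the Vehicle members. In the lineage-clean set the richest 3 held 54.7% of Glutoborin and 39.5% of Vehicle Cd74 UMIs. Cell by cell the lineage-clean members were close, with MHC class II genes at a median of 0.761% of UMIs in Glutoborin (0 to 5.96%) and 0.663% in Vehicle (0.0673 to 3.17%). With each member given equal weight, 1 of the 7 genes was higher and 1 lower, beside 96 higher and 99 lower of 656 genes over all. Without the patrolling limit and without other-lineage members, 2 of 8 were higher, against 10.2%, with a median of 0.42.

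Dendritic cells are rich in MHC class II. Their markers were few in the members, and as a list they summed higher in Glutoborin. The dendritic cell list had 18 UMIs in Glutoborin members, 10 of them in 1 cell, and 9 UMIs in Vehicle members, 5 of them in 1 cell, or 129 and 93.5 CPM. It had 125 CPM in lineage-clean Glutoborin and 0 in lineage-clean Vehicle members. Of its genes, Cd209a had 8 UMIs in 1 Glutoborin member and 0 in Vehicle, and Zbtb46 had 1 and 0, while Xcr1 had 2 in Glutoborin and 6 in Vehicle. Its remaining genes, Flt3 and Clec10a, are not given singly here. The B cell list had 315 CPM in Glutoborin and 291 CPM in Vehicle members, and 499 and 630 CPM in the lineage-clean ones. Cst3, a lysosomal protease inhibitor gene that dendritic cells also express strongly, was at a log2 ratio of -0.47 in the members, with 224 of 372 Vehicle UMIs in 1 cell, but at 2.61 in the lineage-clean members. There the richest 3 cells held 71.5% of 309 Glutoborin and 47.6% of 42 Vehicle Cst3 UMIs. The part of these markers in the MHC class II sums was not tested.

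**Figure D4:**
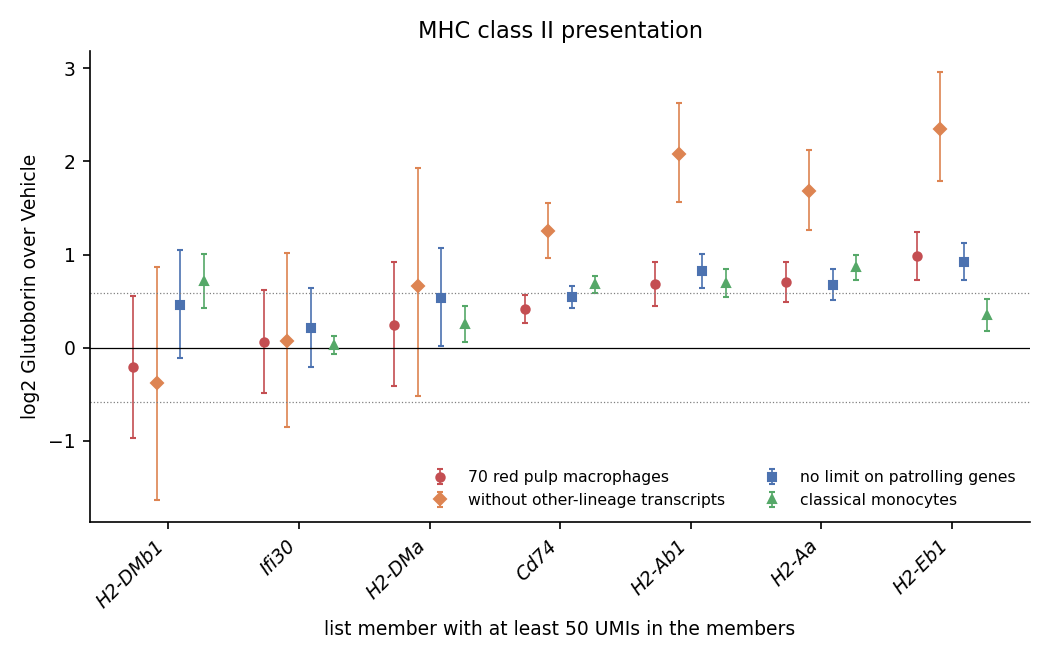
Log2 ratio of Glutoborin over Vehicle with exact intervals for the 7 MHC class II list genes measured in the members, in the 70 members (red circles), the lineage-clean members (orange diamonds), the barcodes without the patrolling limit (blue squares) and classical monocytes (green triangles). Dotted lines mark 1.5-fold. H2-Eb1, H2-Aa and H2-Ab1 lie above 0.58 in the members and higher in the lineage-clean ones, where Cd74 also stands at 1.25.

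Among heme and iron genes, those at least 1.5-fold lower in the Glutoborin members were genes that the rule used. Hmox1 had 180 UMIs in Glutoborin and 242 in Vehicle members, which came to 1290 and 2515 CPM and a log2 ratio of -0.96 (-1.25 to -0.68). Its UMIs were spread over 36 Glutoborin and 31 Vehicle members. The ratio of Hmox1 was -0.65 in the lineage-clean members, -0.45 without the patrolling limit and -0.25 when other-lineage members were also left out. Spic had 34 and 38 UMIs, at -0.70 (-1.41 to 0.01), and Slc40a1 had 121 and 126, at -0.59 (-0.97 to -0.22). Lifting the patrolling limit put Spic at -0.27 and Slc40a1 at -0.29. These 3 genes belong to the rule, and their values are descriptions. The ferritin genes Fth1 and Ftl1, whose products store iron, were within 1.5-fold in the members, at -0.23 and -0.20. Biliverdin reductase B (Blvrb), which acts after heme oxygenase, went the other way with 56 UMIs in Glutoborin and 20 in Vehicle members, a log2 ratio of 0.95 (0.19 to 1.76). It stood at 1.04 (0.55 to 1.56) without the patrolling limit and was seen there in 46 of 59 Glutoborin and 19 of 43 Vehicle barcodes. In the lineage-clean members Blvrb was at 0.78 (-0.12 to 1.74), an interval that holds 0. Over the whole list, 1 of 7 measured genes was higher and 3 lower in the members, and the 3 lower ones are Hmox1, Spic and Slc40a1. Of the 4 measured genes outside the rule, 1 was higher and 0 lower. In the lineage-clean members 4 of 9 were lower, against 19.7%, and 1 higher. The lower genes there included Slc11a1, which is outside the rule, at -0.94 (-2.25 to 0.29). Without the patrolling limit 3 of 14 were higher, namely Blvrb, Lrp1 and Ncoa4, and 0 lower.

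Of the remaining genes that the rule required, Vcam1 was lower with an interval below 0, and the intervals of the others hold 0. C1qa had 258 UMIs in Glutoborin and 177 in Vehicle members, a log2 ratio of 0.01 (-0.27 to 0.29), C1qb was at 0.26 and C1qc at 0.20. Axl, a receptor that binds dying cells through Gas6, was at -0.43 with an interval that holds 0, Vcam1 at -0.53 (-0.85 to -0.20) and Cd5l at 0.33 (-0.20 to 0.88). Among 10 measured genes of the phagocytosis list, 2 were higher and 2 lower. The mannose receptor gene Mrc1 had 40 UMIs in Glutoborin and 14 in Vehicle members, a log2 ratio of 0.98 (0.07 to 1.97), and the inhibitory receptor gene Sirpa was at -0.65 (-1.19 to -0.12). The complement list, with 4 measured genes, and the cholesterol list, with 2, had 0 past 1.5-fold in the members. In the lineage-clean members each list had 1 of 4 genes lower, against 19.7%, and 0 higher. The complement genes had a median of -0.42 there, with all 4 below 0, beside 0.10 in the members and 0.26 without the patrolling limit. A single Glutoborin member with other-lineage transcripts held 182 C1q UMIs. Apoe, the lipid carrier, was at -0.01 (-0.31 to 0.30) in the members.

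Lysosome genes were lower more often than higher in the members, with 5 of 18 lower and 2 higher, against backgrounds of 13.9% and 8.99%, and a median of -0.33. Lgmn, which encodes the protease legumain, had 430 CPM in Glutoborin and 914 CPM in Vehicle members, a log2 ratio of -1.09 (-1.59 to -0.60). Once the patrolling limit was lifted, 1 of 25 lysosome genes was lower and 2 higher, with a median of -0.01, and Lgmn was at -0.36. Among macrophage transcription factors 3 of 11 were lower and 0 higher. Cebpb, a C/EBP family factor gene, had 19 UMIs in Glutoborin and 58 in Vehicle members, at -2.15 (-2.98 to -1.38), with 26 of the 58 in 1 cell, and was at -1.54 in the lineage-clean members. MHC class I genes were lower in 5 of 13 and higher in 0, with a median of -0.33 and B2m at -0.37 (-0.58 to -0.16). Without the patrolling limit 1 of 17 MHC class I genes was lower, against 8.71%, and in the lineage-clean members 3 of 12, against 19.7%. The classical monocytes had 4 of 21 lower, with a median of -0.35.

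Of the stress lists, heat shock chaperone genes were lower in 2 of 6 and higher in 0, with Hspa8 at 1427 CPM in Glutoborin and 2421 CPM in Vehicle members, a log2 ratio of -0.76 (-1.04 to -0.48). Hspa8 was also at -0.69 in the lineage-clean members, -0.76 without the patrolling limit and -1.18 in classical monocytes. Immediate early genes were lower in 3 of 10 and higher in 0, with Junb at -0.91 (-1.35 to -0.47). Junb was at -0.27 in the lineage-clean members. The oxidative stress list had 1 of 8 lower, which is Hmox1, a gene of the rule. Of 4 measured chemokine and cytokine genes 1 was higher and 2 lower, and of 2 measured alternative activation genes 1 was higher. Oxidative phosphorylation genes differed between the sets: 2 of 18 were lower and 0 higher in the members, with a median of -0.25, but 5 of 14 were higher, against 14.9%, and 0 lower in the lineage-clean members, with a median of 0.47. Of 3 measured glycolysis genes 1 was higher and 0 lower in the members. The glutamine and glutathione list had 1 measured gene of 22. That gene, the amino acid transporter Slc38a2, had 37 UMIs in Glutoborin and 15 in Vehicle members, at 0.77 (-0.13 to 1.74). Of 4 measured cell cycle genes Hmgb2 was higher, at 1.10 (0.29 to 1.99), and of 6 adhesion genes Selplg, a selectin ligand gene, was higher at 0.92 (0.28 to 1.60). Pycard, the inflammasome adaptor, was the single measured gene of the pattern receptor list, at 0.59 (-0.28 to 1.51).

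Several of the genes that stood farthest apart between the libraries came largely from single members. S100a8 and S100a9, calcium-binding proteins abundant in neutrophils, had 401 and 341 UMIs in Glutoborin members, 399 and 337 of them in 1 cell, and 4 and 1 in Vehicle members. The neutrophil gene Retnlg had 163 UMIs in that library, all in 1 cell, and 0 in Vehicle. The hemoglobin gene Hbb-bs had 57 of its 58 Glutoborin UMIs in 1 cell and 0 in Vehicle. Wfdc17, a gene of activated myeloid cells, had 55 of 89 Glutoborin UMIs in 1 cell. The chemokine gene Ccl5 had 534 UMIs in 12 Glutoborin members, of which the richest 3 held 63.7%, and 196 in 8 Vehicle members, 144 of these in 1 cell, and its log2 ratio of 0.91 was -0.27 in the lineage-clean members. On the lower side, Lyz2 had 161 of its 183 Vehicle UMIs in 1 cell, Plac8 101 of 150 and Ly6c2 51 of 62, all 3 being abundant in monocytes. Klra4, a natural killer receptor gene, was in 5 Glutoborin and 2 Vehicle members.

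Further genes in this order were also uneven across cells. Rgs1, a regulator of G protein signaling, had 33 UMIs in 9 Glutoborin members and 60 in 11 Vehicle members, a log2 ratio of -1.40 (-2.06 to -0.76). The richest 3 cells held 63.6% of its Glutoborin and 66.7% of its Vehicle UMIs. It was at -2.27 in the lineage-clean members, where 10 UMIs stood in 2 Glutoborin and 40 in 6 Vehicle cells, and -1.19 without the patrolling limit. Lgals1 (galectin-1) was higher at 0.99 (0.39 to 1.62) in the members and 0.22 in the lineage-clean ones. AY036118, with 26 of its 54 Glutoborin UMIs in 1 cell, was at 1.63 in the members and -0.53 in the lineage-clean ones. Malat1 was at 0.76 (0.66 to 0.87) in the members and -0.69 in the lineage-clean ones, where the richest 3 cells held 91.5% of Glutoborin and 89.9% of Vehicle Malat1 UMIs. Immunoglobulin light chain transcripts (Igkc) had 52 UMIs in 24 Glutoborin and 69 in 27 Vehicle members, at -0.94 (-1.49 to -0.40), and -1.34 in the lineage-clean members. Igkc was picked out after its values were seen.

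Ccl24 and Selenop were picked out after their values were seen, with the patrolling limit lifted. Ccl24, a chemokine for eosinophils, had 57 UMIs in 14 Glutoborin and 3 UMIs in 3 Vehicle barcodes, a log2 ratio of 3.46, with 49.1% of the Glutoborin UMIs in 1 cell. Selenop, a selenium carrier protein made by macrophages, had 197 UMIs in 42 Glutoborin and 45 UMIs in 25 Vehicle barcodes, a log2 ratio of 1.34, and its richest cell held 13.2% of the Glutoborin and 8.89% of the Vehicle UMIs. In the members under the rule the same ratio of Selenop was 0.53 (-0.11 to 1.20), and Ccl24 had 7 and 2 UMIs. Cd5l likewise went to 0.66 without the limit, against 0.33 with it.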

How the data were processed

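Single-cell RNA was measured in CD45-sorted spleen cells, 1 library per group. The deposited matrices hold raw UMI counts per gene and barcode. Per the file headers they were written by Cell Ranger 6.1.2, and the submitters' processing notes list Cell Ranger 6.0.1, Seurat 4.3.0 and mm10. No source used here names the annotation release. The counts carry no normalization, so depth per barcode sets what can be detected.

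UMIs of the members were summed per library and compared as CPM with exact Poisson, binomial (Clopper-Pearson) and ratio intervals (numpy 2.4.6, scipy 1.17.1). The ratio and its interval were tested on simulated independent counts, which leave out the unevenness between cells seen here. No test was run, because each group is 1 library. Doublets were not removed. Scrublet in scanpy 1.11.5 was an alternative, which marked 352 of 9253 kept Glutoborin and 196 of 6688 kept Vehicle barcodes. Named genes were the genes of the rule, the 12 genes on each side with the strongest change by the inner bound of the interval, among genes of at least 50 CPM in the higher library, up to 4 measured genes of each list with the most UMIs, and the first 15 against classical monocytes. Other genes were named after their values were seen. Members and lists were chosen with earlier results of these data known. Of 535 list symbols 6 had no row and were not analysed here. Promoter sequences come from RefSeq on GRCm38.p6. Of the measured interferon list genes, 1 is counted but not reported here.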

Additional observations from a re-analysis of the deposited data

Results flagged for a closer look

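Barcodes at or above 10% mitochondrial UMIs were outside the comparisons of the report, and entered only the alternative with a mitochondrial limit of 25%. Among them the rule for red pulp macrophages was met by 9 of 331 in Glutoborin (2.72%, 1.25 to 5.10%) and 5 of 1426 in Vehicle (0.351%, 0.114 to 0.816%), a log2 ratio of 2.96 (1.22 to 4.88), which is above the Vehicle level. That ratio depends on the number of such barcodes, which was larger in Vehicle. With these barcodes counted in, the members were 47 of 9646 (0.487%) in Glutoborin and 37 of 8204 (0.451%) in Vehicle. The log2 ratio over all barcodes was 0.11 (-0.54 to 0.77), an interval that holds 0. No Malat1 UMI was found in 4 of the 9 and 2 of the 5.

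The summed ratios of S100a9 and S100a8 had opposite signs in 2 cell types. S100a9 had a log2 ratio of 7.88 (5.39 to 13.2) in red pulp macrophages and -4.35 (-4.76 to -3.96) in classical monocytes, and S100a8 had 6.11 (4.74 to 7.99) and -1.72 (-1.89 to -1.55). The difference itself was not tested. Of the member UMIs in Glutoborin, 337 of 341 for S100a9 and 399 of 401 for S100a8 came from 1 cell rich in neutrophil transcripts. Without other-lineage members S100a8 had 1 UMI in Glutoborin and 4 in Vehicle, a log2 ratio of -2.27 (-7.89 to 1.07). S100a9 had 3 UMIs in Glutoborin there, beside 1 in all Vehicle members. These counts are too small to give a direction, so an opposite direction in the macrophages themselves is not shown.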

How the results depend on the processing

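The alternatives that leave out members with other-lineage transcripts or lift the patrolling limit were chosen after seeing the data. The share of red pulp macrophages stayed within its counting interval under each of the 9 alternatives that change the cells, with log2 ratios from -0.41 to 0.06. Type I interferon genes past 1.5-fold were lower under each of the 16 alternatives, with 0 higher except for 1 with no minimum. Counts of genes depended on the minimum and the cells. Against 59 higher and 91 lower genes, a minimum of 20 UMIs gave 257 and 327, one of 100 UMIs 19 and 25, no minimum 3609 and 2677, thinning to 2000 UMIs (23 Glutoborin and 11 Vehicle cells) 19 and 7, and leaving out other-lineage members at 50 UMIs 28 and 27. Higher genes numbered 36 with at least 10 C1q UMIs, 96 with equal weight per cell and 121 without the patrolling limit. Of the interferon genes, 9 of 15 were lower, beside 91 of 656 genes over all. Without B cell transcripts 5 of 9 were lower, beside 66 of 402 over all. A minimum of 20 UMIs gave 19 of 34, beside 327 of 1887, and one of 100 UMIs 3 of 5, beside 25 of 293. With no minimum 31 of 56 were lower, beside 2677 of 10527, and after thinning 2 of 3, beside 7 of 175. Leaving out other-lineage members at 50 UMIs gave 3 of 5, beside 27 of 207. Lifting the patrolling limit gave 19 of 32, beside 114 of 1309. Higher MHC class II genes were 3 of 7, beside 59 of 656 genes over all. A mitochondrial limit of 25% gave 1 of 7, beside 55 of 695, and one of 5% gave 1 of 6, beside 55 of 508. With equal weight per cell 1 of 7 was higher and 1 lower, beside 96 and 99 of 656 over all. With at least 3 marker genes 0 of 7 were higher, beside 52 of 565. Without B cell transcripts 5 of 6 MHC class II genes were higher, beside 42 of 402 over all. Without other-lineage members at 20 UMIs 5 of 7 were, beside 81 of 544. With no minimum 5 of 15 MHC class II genes were higher and 1 lower, beside 3609 higher and 2677 lower of 10527 genes over all. Genes 10-fold above monocytes, 53 of 1258, numbered 102 without the patrolling limit and other-lineage members. The number of genes at 100 CPM in that set is not given here.

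Of 1618 single-gene comparisons, 1359 kept their value within counting error and 226 moved. In the other 33, over 18 genes, a gene at least 1.5-fold apart in the members changed sign. Sign changes of genes within 1.5-fold are not in that count. Alternatives that change only the minimum leave a gene's ratio as it is, so their agreement was fixed in advance. Leaving out other-lineage members gives the same ratios at both minimums, so those sign changes count at each. With at least 3 marker genes H2-Ab1 went to -0.0070, Klra4 to 0.12 and Ccl4 to 1.43. With at least 10 C1q UMIs Pycard went to -0.66 and Slc38a2 to -0.0017, and with equal weight per cell Dnase1l3 to -0.00069. Thinning put Slc40a1 at 0.15 and Sirpa at 0.21. Leaving out other-lineage members put S100a8 at -2.27, Wfdc17 at -0.13, AY036118 at -0.53, Ccl5 at -0.27, Malat1 at -0.69, Plac8 at 1.11 and Asb2 at 0.43, at both minimums. Lifting the patrolling limit put Igf1 at 0.16 and Dnase1l3 at -0.12. Doing both put S100a8 at -3.46, AY036118 at -0.28, Ccl5 at -0.92, Irf8 at 0.31, Igf1 at 0.40, Slc38a2 at -0.54, Selplg at -0.28, Asb2 at 0.37 and Dnase1l3 at -0.43. The cause was not tested. No paired analysis was possible because each group is 1 library. At the depth of the members a minimum of 50 UMIs leaves 656 genes and one of 20 UMIs 1887.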
